A study of Mus musculus with 6 samples.

Results

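The exocyst is a complex of 8 proteins that tethers secretory vesicles to the plasma membrane before they fuse, and the Ral GTPases Rala and Ralb are among the switches that act on it. The genes described here are its 8 subunits, Exoc1 to Exoc8, and the 2 Ral genes, found by symbol in the deposited table, where each of the 10 matched 1 of 30323 gene IDs. The libraries came from entire mouse hearts of embryonic day 9.5, with 3 labelled C57BL/6 ctrl (control) and 3 labelled CDC-42 KO, the latter from hearts with a myocardial knockout of Cdc42 (MCKO). Each set held 3 hearts, by the design text, but nothing ties a library to 1 embryo. The sources used here do not give the allele, the promoter that drove the deletion or the litters. P-values below thus reflect the scatter among these libraries, and that scatter may be technical.

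The subunits form 2 modules, one of Exoc1, Exoc2, Exoc3 and Exoc4 and one of Exoc5, Exoc6, Exoc7 and Exoc8, which join into a rod-shaped tether. Vesicles reach it through Rab GTPases, among them Rab11 bound to Exoc6, while Exoc1 and Exoc7 bind phosphoinositides in the target membrane. Active Ral binds Exoc2 and Exoc8, and further small GTPases, Cdc42 and Rhoq among them, direct the complex to sites of polarized secretion. In embryos the complex is needed for membrane growth, epithelial polarity and cilia.

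Totals of the control libraries ran from 19256840 to 32169289 estimated counts and those of the MCKO libraries from 23883877 to 34246477, so that the members, at 366 to 3610 counts in a library, lay far above the 3 counts that a count of 0 allows. Levels are given as scaled CPM, for which the library total is first multiplied by the library's TMM factor. Those factors were 1.017 to 1.026 in controls and 0.9745 to 0.9816 in MCKO. The heart label held in both groups, with none of the 10 cardiomyocyte markers at 0. They summed to 34138 to 37527 scaled CPM in controls and 41840 to 43537 in MCKO. Of these markers 4 were called higher, 1 was called lower (Myl2, log2 fold change -0.28) and 5 were not called. Myh7 alone went from a mean of 6199 to 10350. The other marker lists also differed. The 8 primitive red cell markers summed to 2811 to 3032 in controls and 5961 to 6372 in MCKO. The 10 endothelial markers summed to 1154 to 1175 against 1430 to 1451. The 7 epithelial markers, chosen for pharynx and foregut, summed to 149.1 to 163.1 against 261.8 to 286.2. Most of the epithelial sum was Krt8 and Krt18, with means of 106.3 and 49.4 in controls and 168.9 and 92.5 in MCKO. All 7 were called higher, and the scarce ones rose more, Epcam from a mean of 0.88 to 5.53 and Shh from 0.065 to 1.63. Shh had only 2, 0 and 4 counts in the controls, near the floor of 3 counts, so the size of its rise is uncertain. The 6 epicardial markers went the other way, at 192.3 to 202.4 in controls and 79.66 to 80.68 in MCKO. The 6 macrophage markers stood at 3.06 to 3.42 against 1.31 to 2.06, with C1qa at 0 throughout. Only 2 of them had enough counts to be tested. Csf1r, with means of 2.285 and 0.977, was called lower, and Cx3cr1 was not called. Mitochondrially encoded genes took 3.13 to 3.55% of the counts in controls and 1.31 to 1.38% in MCKO. The part of these differences in the results that follow was not tested, and in whole hearts fewer cells of a type cannot be told apart from less RNA per cell.

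Cdc42, the targeted gene, had 390.2, 371 and 413 scaled CPM in the controls and 252.6, 245.3 and 244.7 in MCKO. Every MCKO library lay below every control library, which fits the labels, with a log2 fold change (MCKO over control) of -0.66 (SE 0.047, edgeR adjusted p = 2.93e-06).

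Against this background most exocyst and Ral transcripts kept close to their control level. All 10 passed the filter on low counts, and 3 were called at an edgeR adjusted p under 0.05: Exoc3 and Exoc5 fell and Exoc7 rose. The share of all 14697 tested genes that was called was 58.4%, with 29.3% higher in MCKO and 29.1% lower. Whether the members differ from the table in this share was not tested. The median of their absolute log2 fold changes was 0.097, against 0.31 over all tested genes, and 8 of the 10 lay below that value. The median SE was 0.048 for the members and 0.08 for all tested genes. Noise adds to absolute changes, and its part in the gap was not tested. The median signed change was 0.03 for the members and 0.0006 for all tested genes. No member reached a 1.5-fold change. With library totals in place of TMM factors, a setting that lowers every gene by about 0.06 on the log2 scale, 5 members were called, 1 higher and 4 lower.

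Exoc3, the counterpart of yeast Sec6 and a core subunit of its module, changed most. It is a protein-coding gene (ENSMUSG00000034152) located on chromosome 13, minus strand, 74169488 to 74208732 (GRCm38). The control libraries held 77.9, 76.9 and 73.1 scaled CPM and the MCKO libraries 52.7, 53.5 and 49.9. The groups were far apart, with SDs of 2.54 and 1.88. Exoc3 fell by 0.545 on the log2 scale (SE 0.049, 95% confidence interval -0.66 to -0.43, edgeR adjusted p = 1.4e-05), and its fitted level decreased by 31.46%. Of all tested genes, 71.9% had a smaller absolute change.

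Its partners in the same module were near their control levels. Exoc4, the counterpart of Sec8 and the most abundant subunit per length, lies on chromosome 6 at 33249085 to 33973979 and had 94.8, 90.5 and 94.8 scaled CPM in controls and 96.7, 97.3 and 94.3 in MCKO. The libraries of both groups were intermingled, and the interval of the log2 fold change ran from -0.053 to 0.14 (edgeR adjusted p = 0.426). Exoc2, the Sec5 counterpart and a Ral effector, lies on chromosome 13 at 30813919 to 30974093. It had 52.8, 53.1 and 54.2 in controls and 54.0, 54.6 and 53.6 in MCKO, the smallest change of the members, with an interval of -0.078 to 0.12 (edgeR adjusted p = 0.73). Exoc1, the Sec3 counterpart, which marks the membrane site in yeast, lies on chromosome 5 at 76529311 to 76570294. Its controls held 49.6, 50.8 and 51.2 scaled CPM and its MCKO libraries 48.8, 47.3 and 45.5. All MCKO libraries were just below all controls, but the difference of -0.098 (SE 0.048) did not pass (edgeR adjusted p = 0.108). With library totals in place of TMM factors it was -0.16 and passed (edgeR adjusted p = 0.0191).

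**Figure D1:**
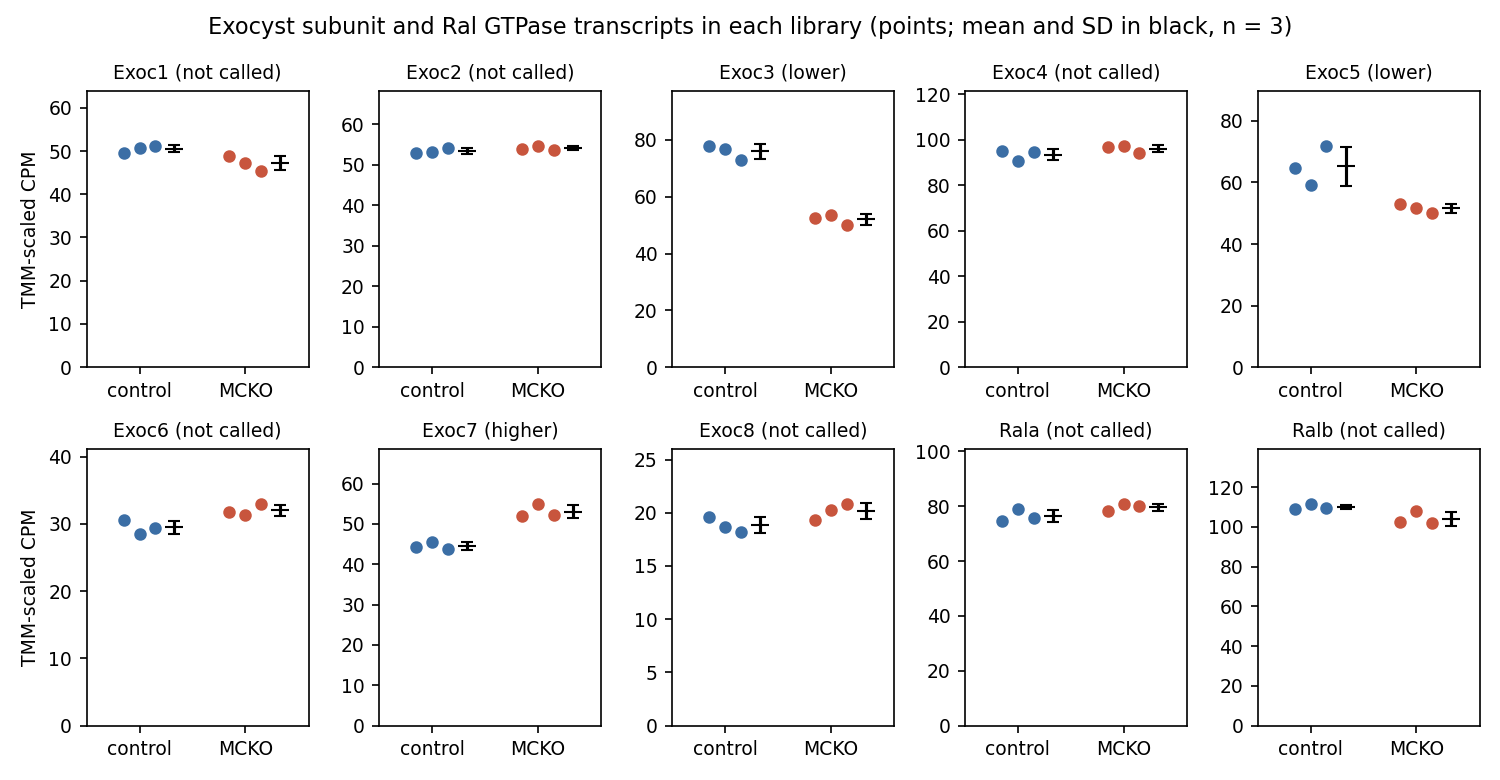
Scaled CPM (vertical axis, from 0) of the 8 exocyst subunit genes and the 2 Ral genes in 3 control (blue) and 3 MCKO (red) libraries, with the mean and SD (n = 3) in black and the call above each panel. Exoc3 dropped from 73.1 to 77.9 in controls to 49.9 to 53.5 in MCKO and Exoc7 rose from 43.8 to 45.6 to 52.0 to 54.9, while Exoc2, Exoc4, Exoc8 and Rala overlapped between the groups.

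In the second module 1 subunit fell and 1 rose. Exoc7, the counterpart of Exo70, which binds membrane phosphoinositides and the GTPase Rhoq, is encoded on chromosome 11, minus strand, 116288001 to 116307233 (ENSMUSG00000020792). It had 44.3, 45.6 and 43.8 scaled CPM in controls and 52.0, 54.9 and 52.3 in MCKO. Every MCKO library was above every control library, and Exoc7 rose by 0.25 on the log2 scale (SE 0.047, interval 0.15 to 0.36, edgeR adjusted p = 0.00144), or about 19.1%. An annotated noncoding gene on the other strand, Gm26730, shares 293 exonic bases with Exoc7 and was not analysed here.

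Exoc5, the counterpart of Sec10, which links the vesicle side to the rest of the complex, is encoded on chromosome 14, minus strand, 49004090 to 49066653 (ENSMUSG00000061244). Its controls held 64.7, 59.2 and 71.9 scaled CPM and its MCKO libraries 52.9, 51.9 and 50.1. The controls were spread more widely than for any other member, with a coefficient of variation of 9.78% against 2.76% in MCKO, yet they stayed above all MCKO libraries. Exoc5 fell by 0.34 (SE 0.069, interval -0.5 to -0.18, edgeR adjusted p = 0.00231), or decreased by 21.03%. Without control replicate 3, the highest library, the log2 fold change was -0.26, and it ran from -0.41 to -0.26 as each library was left out. Its exons share 528 bases with those of Ap5m1 on the opposite strand, and the sources used here do not say whether the counting used strand. Ap5m1 had 28.3, 28.6 and 33.96 scaled CPM in controls and 31.2, 28.3 and 26.7 in MCKO and was not called (log2 fold change -0.075, SE 0.088, edgeR adjusted p = 0.486).

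The other members of that module were not called. Exoc6, the Sec15 counterpart that binds Rab11 on vesicles, lies on chromosome 19 at 37550418 to 37684059 and had 30.5, 28.5 and 29.3 scaled CPM in controls and 31.8, 31.3 and 32.9 in MCKO. The groups did not overlap, and the difference of 0.12 (SE 0.054, interval -0.0042 to 0.24) gave an edgeR adjusted p of 0.0889. Exoc8, the Exo84 counterpart and a Ral effector, lies on chromosome 8 at 124893108 to 124897705. It had 19.6, 18.7 and 18.2 in controls and 19.4, 20.3 and 20.8 in MCKO, overlapping groups with an interval of -0.046 to 0.24 (edgeR adjusted p = 0.219).

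The Ral GTPases are close relatives, RalA being tied to exocytosis through the exocyst and RalB also to cell survival and migration. Rala, on chromosome 13 at 17880571 to 17944239, had 74.6, 79.0 and 75.6 scaled CPM in controls and 78.3, 80.7 and 80.04 in MCKO. The groups overlapped, and the difference was 0.061 (SE 0.044, edgeR adjusted p = 0.26). Ralb, on chromosome 1 at 119470305 to 119504794, had 109.1, 111.3 and 109.4 in controls and 102.2, 108.1 and 101.8 in MCKO. Here all MCKO libraries were the lower ones, and the difference of -0.079 (SE 0.042, edgeR adjusted p = 0.136) did not pass. It was -0.14 and passed with library totals in place of TMM factors (edgeR adjusted p = 0.0189). Outside the 3 calls, the intervals of all 7 members lay between -0.21 and 0.24 on the log2 scale.

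Non-overlap of the 3 and 3 libraries was seen for 6 of the 10 members, lower in MCKO for Exoc1, Exoc3, Exoc5 and Ralb and higher for Exoc6 and Exoc7. Over all tested genes it was seen for 64.7%, 32.5% higher and 32.3% lower, so the members were near the rate of the table by this measure. Replicates of the members were close, with coefficients of variation of 0.992 to 3.88% in either group apart from Exoc5 in controls. None of the 10 has another gene whose transcripts match its longest coding transcript at 95% identity over 80% of the length. Rala and Ralb share 601 aligned bases at 75.4% identity, and Exoc6 and its relative Exoc6b 1562 bases at 71.8%.

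**Figure D2:**
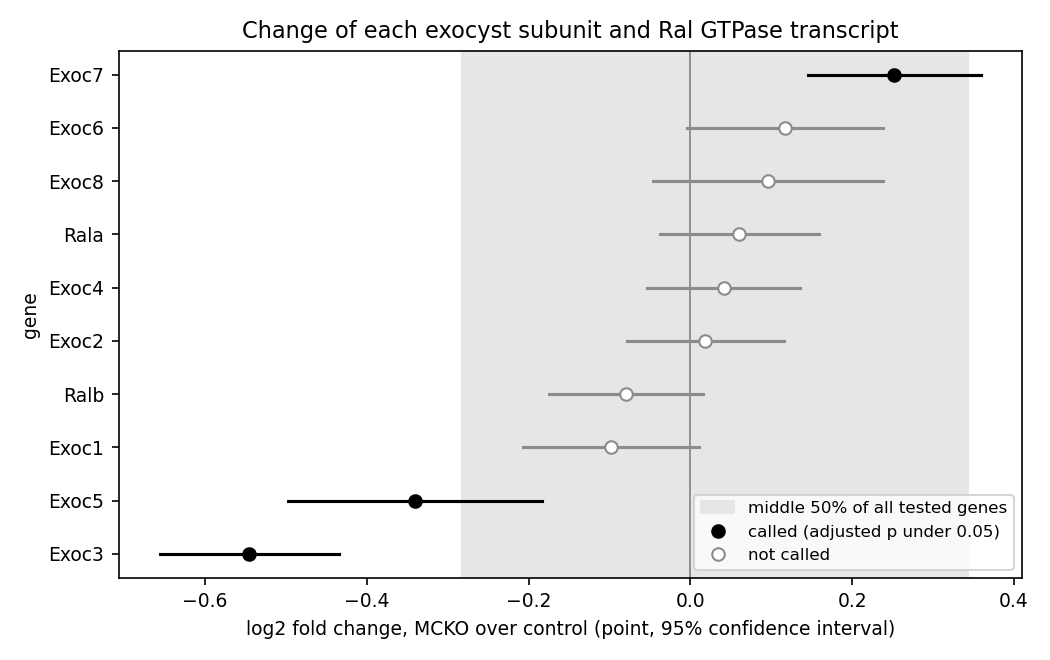
Log2 fold change of each member, MCKO over control (horizontal axis), with its 95% confidence interval. Filled points passed an edgeR adjusted p under 0.05, and the grey band runs between the quartiles of all tested genes, from -0.28 to 0.34. Exoc3 and Exoc5 are below the band, Exoc7 is inside it at 0.25, and the intervals of the 7 open points include 0.

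Levels of different genes can be compared only per length. Counts were divided by the length of each gene's longest coding transcript, 2289 bases for Ralb to 12699 for Exoc5, since the transcripts in use in these hearts are not known. On this scale of scaled CPM per kilobase Ralb was the highest member at 48.0 ± 0.53 in controls (SD, n = 3) and 45.5 ± 1.5 in MCKO. Rala followed at 28.4 ± 0.87 and 29.6 ± 0.46. Both GTPases were above every subunit.

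Among the subunits Exoc4 stood first in both groups, at 19.4 ± 0.51 per kilobase in controls and 19.9 ± 0.33 in MCKO. In controls Exoc3 and Exoc1 came next and overlapped, with 14.9 to 15.8 and 14.7 to 15.2, then Exoc7 with 13.1 to 13.7 and Exoc2 with 12.1 to 12.4. Exoc6 followed with 8.06 to 8.62, then Exoc5 with 4.66 to 5.66 and Exoc8 with 3.95 to 4.27. Apart from Exoc3 and Exoc1, neighbours in this order did not overlap. In MCKO Exoc7 was second with 15.6 to 16.4, and Exoc3, with 10.1 to 10.9, was below Exoc1 with 13.5 to 14.5 and Exoc2 with 12.3 to 12.5. With the mean length of the coding transcripts in place of the longest, Exoc3 again stood above Exoc7 in every control library (25.7 to 27.4 against 22.9 to 23.8) and below it in every MCKO library (17.5 to 18.8 against 27.1 to 28.6). Other places in the order depend on the length taken. With the mean length, Exoc3 in MCKO, at 17.53 to 18.79, overlapped Exoc1 (17.51 to 18.79) and stood above Exoc2 (12.42 to 12.66), where the longest length put it below both. Exoc7 in controls stood above Exoc1, at 22.87 to 23.76 against 19.1 to 19.73. Exoc5 overlapped Exoc6 in controls, at 7.75 to 9.41 against 8.06 to 8.62, and stood above Exoc8 in MCKO.

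Summed over the 8 subunits, the level per kilobase was 92.9 ± 0.76 in controls and 90.2 ± 1.3 in MCKO (SD, n = 3). The MCKO libraries, at 90.5, 91.3 and 88.8, were all below the controls, at 93.5, 92.0 and 93.1, by a small amount. For comparison, 64.7% of single tested genes had groups that did not overlap in scaled CPM. The mean fell from 15.44 to 10.57 for Exoc3, from 5.138 to 4.065 for Exoc5 and from 14.99 to 13.99 for Exoc1. The means of Exoc2, Exoc4, Exoc6, Exoc7 and Exoc8 were higher in MCKO. The 2 Ral genes summed to 75.4, 78.0 and 75.9 in controls and 73.8, 77.3 and 74.3 in MCKO, and these overlapped.

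The share of each subunit in this sum is taken within a library and so does not depend on scaling between libraries. Exoc3 held 16.93, 16.98 and 15.95% of the exocyst sum in controls and 11.8, 11.9 and 11.4% in MCKO. Exoc7 went the other way, from 14.2, 14.8 and 14.1% to 17.2, 18.0 and 17.6%. Exoc5 held 5.45, 5.06 and 6.08% in controls and 4.61, 4.47 and 4.44% in MCKO. Exoc2, Exoc4, Exoc6 and Exoc8 took larger shares in all MCKO libraries than in any control, by 0.449 to 1.245 percentage points. The share of Exoc1 overlapped (16.1 ± 0.36% and 15.5 ± 0.43%, SD, n = 3). For the 7 subunits whose groups did not overlap the exact 2-sided permutation p was 0.1, the smallest that 3 against 3 libraries allow, or 0.114 adjusted over the 8 subunits by the Benjamini-Hochberg method, and no share could reach 0.05. Since shares sum to 100%, the fall of one raises the others, and Exoc2, Exoc4 and Exoc8 overlapped in scaled CPM. In scaled CPM the groups did not overlap for 64.7% of all tested genes.

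Within the Ral pair, Rala made up 36.8, 37.7 and 37.0% of the sum per length in controls and 39.5, 38.9 and 40.1% in MCKO. The shift of 2.30 percentage points separated all libraries (exact 2-sided permutation p = 0.1, the smallest possible). Neither gene was called on its own, and in scaled CPM the groups did not overlap for 64.7% of all tested genes.

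**Figure D3:**
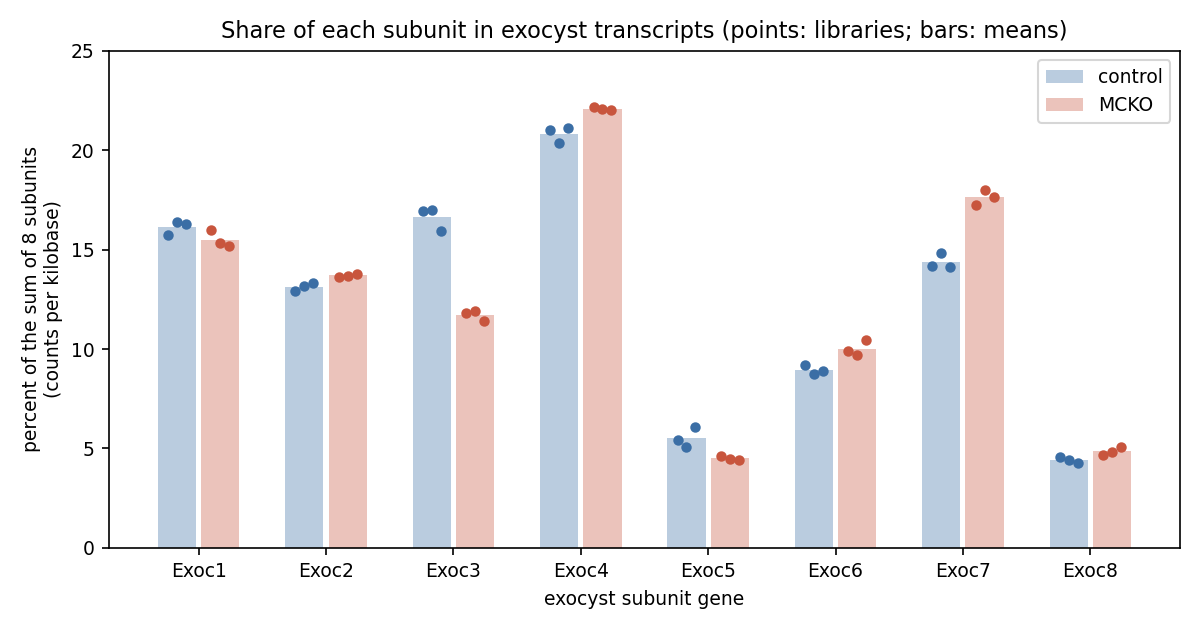
Percent of the summed counts per kilobase of the 8 subunits (vertical axis, from 0) taken by each subunit in control (blue) and MCKO (red) libraries, with points for libraries and bars for group means. Exoc3 went from a mean of 16.6% to 11.7% and Exoc7 from 14.4% to 17.6%, while Exoc4 remained the largest share at 20.8% and 22.1%.

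Of 5 genes related to Exoc3 or Exoc6, 4 passed the filter on low counts and 3 were called higher in MCKO, against 29.3% of all tested genes. The median log2 fold change of the 4 was 0.30. Tnfaip2, also called M-Sec, a Sec6 relative known for promoting tunnelling nanotubes with RalA and the exocyst, had 37.1, 38.3 and 37.1 scaled CPM in controls and 48.1, 48.0 and 46.4 in MCKO. These groups were well apart, a rise of 0.34 (SE 0.047, edgeR adjusted p = 0.000211). Exoc6b, the second Sec15 gene, rose from 39.1 ± 1.7 to 46.3 ± 1.6 scaled CPM (SD, n = 3 each; log2 fold change 0.24, edgeR adjusted p = 0.00346).

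Exoc3l2, a Sec6 relative known from endothelium, had 14.9, 13.9 and 13.4 scaled CPM in controls and 15.4, 17 and 18.4 in MCKO. It rose by 0.26 (SE 0.084; adjusted p of 0.0221 in edgeR). The call was lost without control replicate 3 (adjusted p = 0.0517), without MCKO replicate 2 (0.065) or 3 (0.088), with library totals (0.0589) and in DESeq2 (0.0583). Of 10 endothelial markers 8 were called higher in the same libraries and 2 lower, Npr3 at -0.92 and Tek at -0.7 on the log2 scale. The part of this in the change of Exoc3l2 was not tested. Exoc3l was not called (log2 fold change 0.42, SE 0.25), and Exoc3l4, with 10 counts in 1 control library and 0 elsewhere, was not tested.

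The regulators of Ral moved in both directions, as did tested genes at large, with 29.3% called higher and 29.1% lower. Whether any of the pathway lists differs from all tested genes was not tested. RalGEFs load Ral with GTP, and of 6 of them 3 were called higher and 2 lower. Ralgds, an effector of Ras, rose from 17.6 ± 1.6 to 22.7 ± 0.39 scaled CPM (SD, n = 3; log2 fold change 0.37, edgeR adjusted p = 0.00227). Ralgps2, which is recruited without Ras, rose by 0.24 (SE 0.05) and Rgl2, whose groups overlapped, by 0.19 (SE 0.067), while Rgl1 fell by 0.2 (SE 0.044). The call of Rgl2 was lost without control replicate 1 (adjusted p = 0.11) or 3 (0.0637), without MCKO replicate 2 (0.121) or 3 (0.0918), and with library totals (0.114).

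RalGAP complexes switch Ral off and consist of a catalytic alpha subunit and the shared beta subunit. Ralgapa2, one of the catalytic subunits, had 47.1, 43.0 and 48.9 scaled CPM in controls and 72.0, 71.4 and 68.3 in MCKO. All MCKO libraries were far above the controls, a 1.52-fold rise (edgeR adjusted p = 1.79e-05). Ralgapb, the beta subunit, went from 93.2, 87.4 and 96.9 to 71.7, 72.6 and 65.9. It fell by 0.4 on the log2 scale (SE 0.056, edgeR adjusted p = 0.000233). The other catalytic subunit gene, Ralgapa1, was not called (log2 fold change -0.09, SE 0.16).

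Of 8 other effectors and partners of Ral, 3 were called higher and 2 lower, against 29.3% and 29.1% of all tested genes. Pld1, a phospholipase that binds Ral, rose by 0.29 (SE 0.073), and Reps1, an adaptor of endocytosis, by 0.2 (SE 0.051), a call that just missed with library totals (edgeR adjusted p = 0.0501). Flna, the actin crosslinker filamin A, fell by 0.14 (SE 0.041) and Aurka, a kinase that phosphorylates RalA, by 0.18 (SE 0.051). The call of Flna was lost without MCKO replicate 1 (edgeR adjusted p = 0.0506) or 3 (0.0588), and that of Aurka without MCKO replicate 1 (0.0519) or control replicate 1 (0.0646).

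GTPases upstream of Ral and of the exocyst moved in both directions. Of 6 Ras genes 2 were called higher and 3 lower, against 29.3% and 29.1% of all tested genes. Rras went from 20.5 ± 0.51 to 44.8 ± 1.7 scaled CPM, a 2.18-fold rise (SD, n = 3; edgeR adjusted p = 2.95e-07), and Mras from 5.79 ± 0.55 to 2.14 ± 0.13 (adjusted p = 1.55e-05). Rras2 fell by 0.23 (SE 0.054). Of 6 other small GTPase genes that act on the exocyst, 2 were called higher and only Cdc42 lower, beside the same shares of all tested genes. Rhoq, the partner of Exoc7, had 98.2, 97.6 and 108.6 scaled CPM in controls and 169.3, 161.8 and 167.8 in MCKO, and Rhoa rose 1.31-fold. Rac1, at 311.8 ± 12.8 and 304.8 ± 1.3 (SD, n = 3), and Arf6, at 46.9 ± 2.7 and 46.9 ± 0.53, were not called.

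The genes that bring vesicles to the exocyst were split. Of 14 Rab GTPases and partners, 3 were called higher and 5 lower, against 29.3% and 29.1% of all tested genes. Their median log2 fold change was -0.17, against 0.0006 for all tested genes. Rab11a, the GTPase of recycling endosomes, rose by 0.26 (SE 0.065) and Rab11fip3, a Rab11 effector, by 0.33 (SE 0.054). Myo5a, a motor that carries Rab11 vesicles, fell by 0.23 (SE 0.052) and Rab11fip4 by 0.7 (SE 0.16). Mical3, which acts with Rab8 in vesicle fusion and is named after its values were seen, had 38.3, 16.5 and 7.42 scaled CPM in controls and 57.6, 56.4 and 54.7 in MCKO. Its groups did not overlap, but the controls differed so widely among themselves that it was not called (edgeR adjusted p = 0.108).

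The fusion step that follows tethering is carried out by SNAREs and their SM proteins. Of 13 measured genes, 8 were called higher and 2 lower, against 29.3% and 29.1% of all tested genes. Their median log2 fold change was 0.18, against 0.0006 for all tested genes, a difference that was not tested. Stx2 rose by 0.59 (SE 0.056) and the vesicle SNARE Vamp2 by 0.4 (SE 0.053). Vamp3, the SNARE of recycling vesicles, fell from 119.2 ± 1.3 to 88.3 ± 0.73 (SD, n = 3; edgeR adjusted p = 1.26e-05). Of the 3 kinases that make the phosphoinositide bound by Exoc1 and Exoc7, Pip5k1a rose by 0.24 (SE 0.048) and Pip5k1b by 0.44 (SE 0.063), and Pip5k1c was not called.

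**Figure D4:**
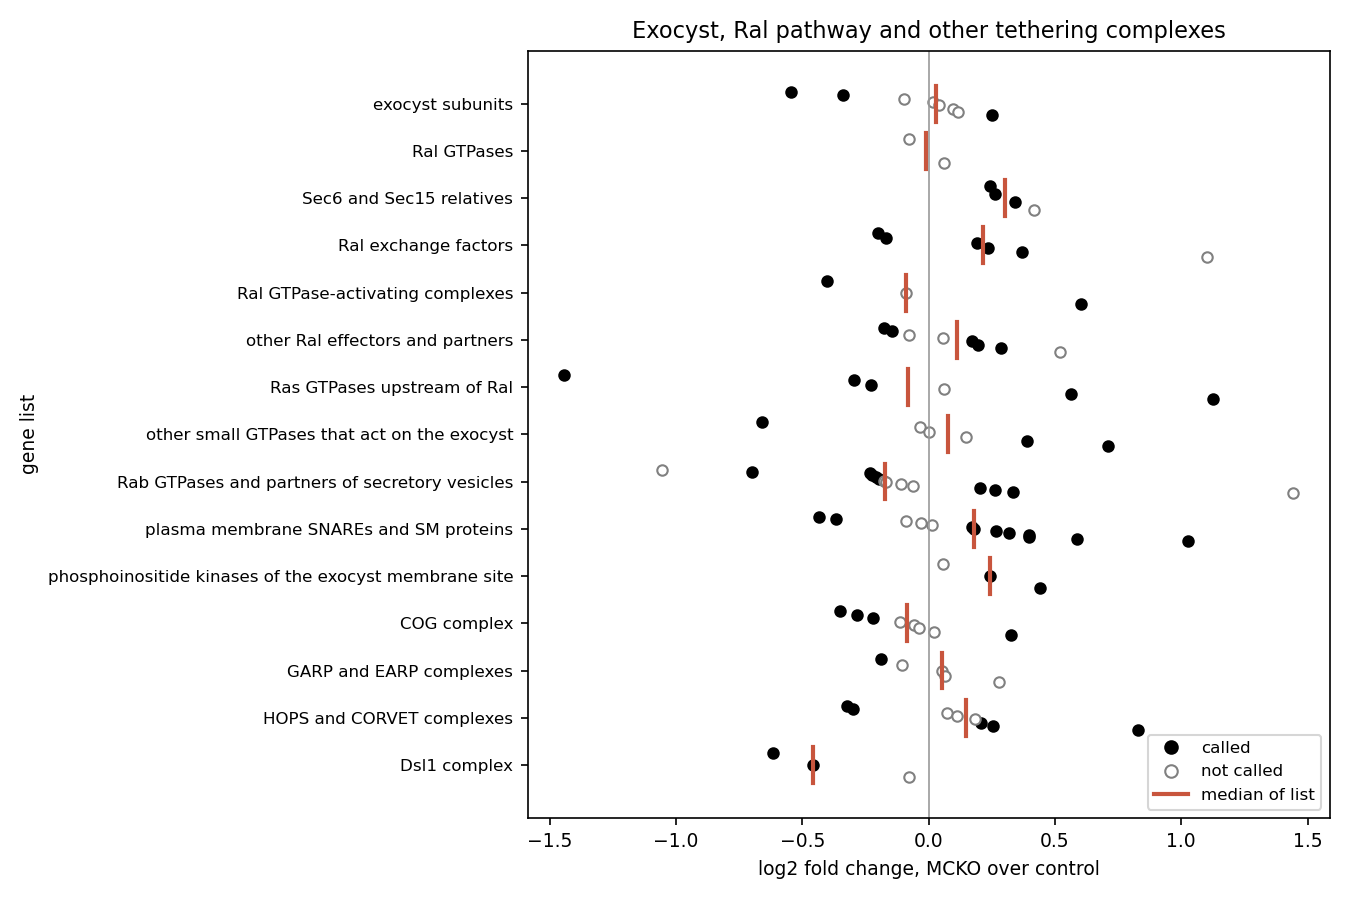
Log2 fold change (horizontal axis, MCKO over control) of every tested gene in the exocyst, pathway and tethering complex lists (rows, without the cell type markers), filled where called by edgeR at an adjusted p under 0.05, with the list median in red. The exocyst subunits spread from -0.55 to 0.25 around a median of 0.03, and the widest called differences in these lists are those of Mras at -1.44 and Rras at 1.12.

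Other tethering complexes, which act at the Golgi, endosomes, lysosomes or endoplasmic reticulum, were set beside the exocyst. Of the 8 exocyst subunits 3 were called (37.5%, against 58.4% of all tested genes), with changes from -0.55 to 0.25. In the COG complex of the Golgi 4 of 8 were called, Cog7 higher by 0.33 (SE 0.054) and Cog1 lower by 0.35 (SE 0.066) among them, with a median of -0.09. In GARP and EARP 1 of 5 was called, Vps50 at -0.19 (SE 0.058). That call was lost without control replicate 3 (edgeR adjusted p = 0.0524), without MCKO replicate 2 (0.0566) or 3 (0.076). In HOPS and CORVET 5 of 8 were called, 3 higher and 2 lower, led by Vps39, which rose 1.775-fold from 40.8 ± 1.2 to 72.5 ± 2.4 scaled CPM (SD, n = 3; edgeR adjusted p = 9.18e-07), and by Tgfbrap1, which fell by 0.32 (SE 0.053). In the Dsl1 complex of the endoplasmic reticulum Nbas and Zw10 fell by 0.62 (SE 0.054) and 0.46 (SE 0.049), and Rint1 was not called. Whether the exocyst differs from these complexes, or any of them from all tested genes, was not tested.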

How the data were processed

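RNA of whole hearts at embryonic day 9.5 was compared between 3 control and 3 MCKO libraries. Total RNA was extracted by column and a stranded mRNA kit was used, per the labels' protocols. The authors deposited estimated counts, whole numbers for each Ensembl gene, with no scaling for depth or length. Per the submitters' processing notes kallisto and mm10 were used. The sources used here do not give the transcript set, versions, strand setting or rounding. Knockout columns, headed CKO, were assigned to the MCKO titles through stage and number. Symbols were found for 29857 of 30323 IDs, and Vamp7 was not found among 146 list symbols. Coordinates, transcript lengths and overlaps came from GENCODE M21 on GRCm38, and similar transcripts from BLAST 2.17.0.

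The test was that of edgeR 4.0.16, run in R 4.3.3 (filterByExpr defaults, TMM, robust quasi-likelihood fits, 2-sided tests, Benjamini-Hochberg adjustment over all tested genes, calls at 0.05) and was tested on simulated data, where the share of false calls was above the nominal level when each gene kept its own dispersion. SE and 95% intervals come from the quasi-likelihood F statistic. The p-values of shares are exact permutation tests over 20 splits. Alternatives were other scalings, filters, thresholds, limma 3.58.1, DESeq2 1.42.0, a replicate block and leaving out each library. Replicates differed beyond sampling noise (chi-square per degree of freedom 3.58 to 15.4 within groups), so each counted once. Counting intervals and floors cover counting error only. The members, lists and tests were chosen with earlier results of these data known. The named genes are all members, up to 4 called genes of each pathway list by smallest p and up to 2 of each comparison complex. Uncalled list genes given by name were chosen after their values were seen. Some genes that the rule picks are not reported here.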

Additional observations from a re-analysis of the deposited data

How the results depend on the processing

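Exoc3, Exoc5 and Exoc7 kept their direction and their call in all 14 alternative fits, from -0.61 to -0.51, -0.41 to -0.26 and 0.19 to 0.27 on the log2 scale. The count of called members was 3 in all of them, leaving out each library included (3 to 3), except with library totals only, where it was 5 (Exoc1 and Ralb in addition). That setting also turned the sign of 3 uncalled members, to -0.043 for Exoc2, -0.021 for Exoc4 and -0.0009 for Rala. Asking for a 1.5-fold change left 0 members and 3379 genes, by construction fewer; at an adjusted p under 0.01, 3 members and 6664 genes were called. Over all genes the fits called 7452 to 8766, and 7452 to 8695 as each library was left out. With the replicate block 7765 genes and 3 members were called. No pairing by number was seen. The deviations of control and MCKO libraries with 1 number correlated at -0.043, 0.036 and -0.2, and some libraries correlated better with another number. With 3 libraries a group these correlations cannot exclude a pairing. Under the block the calls of Exoc3l2 (adjusted p = 0.0589) and Vps50 (0.06) were lost. The Rala share moved by 1.98 to 2.61 percentage points with each library left out, against 2.298. Which transcripts were in use limits the order of levels per length, and 3 libraries a group limit the exact tests.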
